A study of Mus musculus with 9 samples.

Results

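Advillin (Avil) and the P2X3 receptor (P2rx3) are genes of peripheral sensory neurons, and their values fell most clearly of the sensory genes in Neuro2a cells exposed to the higher xyloside dose. They were read with 7 further sensory neuron genes, namely Prph, Pou4f1, Calca, Runx1, Trpv1, Tac1 and Ret, by matching the 9 symbols to the deposited table of 24972 gene names, and each was found once. The 9 genes were selected on the fall of Avil and P2rx3, so the values of these 2 genes in HCX are given as a description with no test, and the question asked of the other 7 was whether they moved with them.

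Neuro2a is a mouse neuroblastoma line, here of wild type genotype, that was grown in medium with serum and carries features of sympathetic neuroblasts. The cells were exposed for 48 h to DMSO, to 500 nM xyloside (LCX) or to 1 mM xyloside (HCX), the xyloside being the 4-methylumbelliferyl β-D-xyloside, a sugar primer on which cells build free glycosaminoglycan chains. The solvent DMSO was present in all 3 groups. RNA of 3 samples per group was sequenced as stranded libraries of polyadenylated RNA, and the labels do not say whether the 3 came from separate cultures, so the p-values measure the spread between these samples, which may be technical. The sample labels give 48 h, while the legend of the study's expression figure gives another time. The 9 libraries summed to between 34949840 and 36667123 normalized counts, and between 12832 and 13040 genes reached 10 normalized counts in a library. The totals stood apart by group, at 36560895 to 36667123 in DMSO, 35597229 to 35668474 in LCX and 34949840 to 35331564 in HCX.

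Sensory neurons of the dorsal root and trigeminal ganglia carry touch, temperature and pain signals from the periphery to the spinal cord and brainstem. Nociceptors, the neurons that respond to harmful stimuli, fall into peptidergic cells that release the peptides encoded by Calca and Tac1 and nonpeptidergic cells that use Ret and P2X3, with Runx1 as a regulator of the second class. Pou4f1 and Isl1 act earlier, as transcription factors of sensory neurons in general. Neuro2a is not a sensory neuron line, and the values below are the levels of these genes in neuroblastoma cells.

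The sequences upstream of the start sites are shown for 3 of these genes because they set the gene that fell beside one that was not called and one that was hardly read. RefSeq sequences of the GRCm38.p6 build were matched by symbol for 7 of the 9 genes, and those of P2rx3 and Ret are named only. Each run holds the 250 bases before the RefSeq start site on the gene's own strand, 5′ to 3′, and the capitals mark TGTGGT, the core letters bound by RUNX proteins, searched on both strands. The motif was chosen after the sequences had been seen. The 3 runs lie on the plus strand at chr10:127000459-127000708 (Avil), chr11:73233899-73234148 (Trpv1) and chr15:99054924-99055173 (Prph).
Avil: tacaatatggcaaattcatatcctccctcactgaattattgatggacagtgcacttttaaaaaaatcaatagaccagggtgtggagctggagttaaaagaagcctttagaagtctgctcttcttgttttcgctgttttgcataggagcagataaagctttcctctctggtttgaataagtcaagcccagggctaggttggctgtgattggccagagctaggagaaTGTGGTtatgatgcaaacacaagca
Trpv1: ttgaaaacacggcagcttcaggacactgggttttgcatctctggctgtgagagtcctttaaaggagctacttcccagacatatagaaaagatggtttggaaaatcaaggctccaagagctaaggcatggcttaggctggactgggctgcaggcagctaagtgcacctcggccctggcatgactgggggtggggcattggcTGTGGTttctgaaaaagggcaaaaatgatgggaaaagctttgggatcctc
Prph: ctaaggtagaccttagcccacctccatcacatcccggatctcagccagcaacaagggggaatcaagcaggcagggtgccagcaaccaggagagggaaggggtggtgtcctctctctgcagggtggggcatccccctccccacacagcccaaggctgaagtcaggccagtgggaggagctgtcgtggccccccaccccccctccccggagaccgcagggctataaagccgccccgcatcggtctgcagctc
The core letters begin 25 bases before the start site of Avil and 50 bases before that of Trpv1, and were not found in the windows of Prph, Pou4f1, Calca, Tac1 or the 2 entries of Runx1. Of 32851 promoter windows of the same length 4614 hold them, or 14%, so a match describes these letters only. Of the 2 genes with a match, Avil was well read in these cells and Trpv1 hardly at all.

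Avil encodes advillin, an actin-binding protein of the gelsolin and villin family best known from sensory ganglia in the mouse. The gene lies at chr10:127000709-127020994 on the plus strand of GRCm38 (ENSMUSG00000025432.11). Its normalized counts were 2425, 3129 and 2053 in the DMSO libraries, 2418, 2253 and 2756 in LCX, and 528, 674 and 443 in HCX. Every HCX library lay below every DMSO and LCX library, with the lowest library outside HCX at 2053 and the highest HCX library at 674. The mean was 2536 ± 546 for DMSO, 2476 ± 257 for LCX and 548 ± 117 for HCX (SD, n = 3 each). On the log2(value + 1) scale the difference was -2.21 between HCX and DMSO and -2.19 between HCX and LCX, or 4.62-fold and 4.56-fold lower. In each of these comparisons 26 of the 13179 genes compared had a more negative value.

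P2rx3 encodes the P2X3 subunit, an ion channel of nociceptors that opens on binding extracellular ATP. It lies at chr2:84998583-85037462 on the minus strand (ENSMUSG00000027071.14). The normalized counts of P2rx3 were 1744, 1966 and 1922 in the DMSO libraries, 1778, 1643 and 1698 in LCX, and 605, 609 and 554 in HCX. The HCX libraries again stood below all others, with less scatter than for Avil. The mean was 1878 ± 117 for DMSO, 1706 ± 68 for LCX and 589 ± 30.7 for HCX (SD, n = 3 each). The log2 difference was -1.67 between HCX and DMSO (3.18-fold lower) and -1.53 between HCX and LCX (2.89-fold lower). More negative values were found for 49 genes in the first comparison and 71 in the second. In bulk samples, fewer cells that carry an RNA and less of that RNA per cell cannot be told apart.

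**Figure D1:**
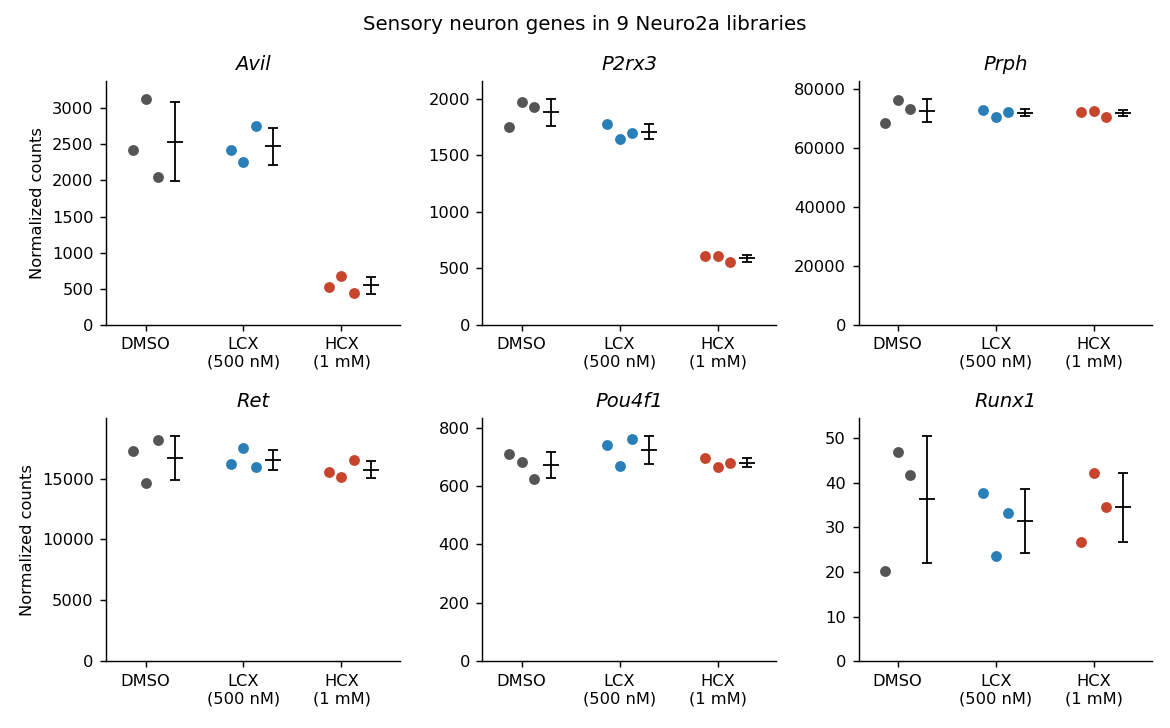
Normalized counts (y axis, from 0) of the 6 sensory neuron genes with values of at least 10 in at least 3 libraries, by group, with 1 point per library and the mean ± SD (n = 3) beside the points. The HCX points of Avil and P2rx3 lie below all other libraries, while those of Prph, Ret, Pou4f1 and Runx1 overlap the DMSO and LCX points.

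Whether the other sensory genes followed Avil and P2rx3 was tested with limma-trend on log2(value + 1) over the 9 libraries, with Benjamini-Hochberg adjustment over the 13179 genes that had at least 10 normalized counts in at least 3 libraries. The threshold for a call was an adjusted p below 0.05. None of the 4 other genes that could be tested (Prph, Ret, Pou4f1 and Runx1) was called in HCX against DMSO or in HCX against LCX, by limma-trend or by limma-voom, and 0 had an unadjusted p under 0.05 by either tool. Over all genes tested, 19.2% were called between HCX and DMSO (13.5% lower) and 17.3% between HCX and LCX (8.95% lower). The median log2 difference over the 4 genes was -0.01 against DMSO and -0.04 against LCX, beside -0.04 and -0.0002 over all genes tested. The remaining 3 genes, Calca, Tac1 and Trpv1, were too low to test.

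Prph encodes peripherin, the intermediate filament protein of peripheral neurons (chr15:99055174-99058978, plus strand). Normalized counts of Prph were 68449, 76181 and 72973 in the DMSO libraries, 72758, 70499 and 72186 in LCX, and 72010.4, 72508 and 70381 in HCX. The groups overlapped, and the HCX values spanned a narrower range than the DMSO values. The log2 difference was -0.02 against DMSO (95% interval -0.12 to 0.08, adjusted p = 0.85 by limma-trend) and -0.0036 against LCX (95% interval -0.10 to 0.10, adjusted p = 0.97 by limma-trend). Both intervals exclude a fall of the size seen for P2rx3.

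Ret encodes the receptor tyrosine kinase through which ligands of the GDNF family act (chr6:118151745-118197718, minus strand). For Ret the normalized counts were 17229, 14648 and 18167 in the DMSO libraries, 16185, 17467 and 15966 in LCX, and 15569, 15115 and 16521 in HCX. The groups overlapped, and DMSO replicate 2 held the lowest value of all 9 libraries. The log2 difference was -0.08 against DMSO (95% interval -0.21 to 0.05, adjusted p = 0.405 by limma-trend) and -0.07 against LCX (95% interval -0.20 to 0.06, adjusted p = 0.463 by limma-trend). Without DMSO replicate 2, Ret was called lower in HCX, at a log2 difference of -0.17 (adjusted p = 0.0283 by limma-trend).

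Pou4f1 encodes BRN3A, a homeodomain factor of sensory neurons (chr14:104461676-104467999, minus strand). Its normalized counts were 711, 681 and 624 in the DMSO libraries, 742, 670.0 and 760.3 in LCX, and 696, 666 and 678 in HCX. The HCX libraries lay within the range of the DMSO libraries. The log2 difference was 0.02 against DMSO (95% interval -0.15 to 0.19, adjusted p = 0.909 by limma-trend) and -0.09 against LCX (95% interval -0.26 to 0.08, adjusted p = 0.493 by limma-trend).

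Runx1 encodes the runt domain factor of nonpeptidergic nociceptors (chr16:92601466-92826149, minus strand). Its normalized counts were 20.1, 47 and 41.8 in the DMSO libraries, 37.7, 23.6 and 33.2 in LCX, and 26.7, 42.2 and 34.6 in HCX. The HCX values again lay within the DMSO range, at a low level and with the widest relative scatter of the 6 genes. The log2 difference was -0.01 against DMSO (95% interval -0.75 to 0.74, adjusted p = 0.99 by limma-trend) and 0.13 against LCX (95% interval -0.62 to 0.87, adjusted p = 0.847 by limma-trend). A change of Runx1 as large as that of Avil or P2rx3 lies outside these intervals, but a change within them could not be detected at this level.

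Calca, which encodes calcitonin and the calcitonin gene-related peptide (chr7:114631478-114636357, minus strand), and Tac1, which encodes substance P (chr6:7554879-7565834, plus strand), were listed at 0 in all 9 libraries. Trpv1, the capsaicin- and heat-gated channel (chr11:73234292-73261242, plus strand), was listed at 0.981 in DMSO replicate 3 and at 0 in the other 8 libraries. A single read was worth about 0.936 to 1.04 normalized counts, depending on the library. No fold change is given for these 3 genes.

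To compare levels between genes, normalized counts were divided by the summed length of each gene's exons in kilobases. Per kilobase, Prph stood highest in DMSO at 36285 ± 1943, followed by Ret at 2467 ± 269, Avil at 746 ± 161, P2rx3 at 673 ± 42.1, Pou4f1 at 144 ± 9.46 and Runx1 at 3.02 ± 1.18 (SD, n = 3 each). The neighbours Avil and P2rx3 overlapped in DMSO, and all other neighbours in that order were apart. In LCX every Avil library (663 to 811) lay above every P2rx3 library (589 to 638). In HCX, P2rx3 stood at 211 ± 11 and Avil at 161 ± 34.4, and every P2rx3 library was above every Avil library, by a small margin (199 against 198). Pou4f1 at 146 ± 3.18 then lay within the range of Avil. The exon lengths cover all annotated transcripts, so the levels per kilobase are approximate.

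At the lower dose no sensory gene was called. Between LCX and DMSO, limma-trend called 0 of the 6 tested genes and 0 of all 13179 genes (0%), with 0 of the 6 and 807 of all genes at an unadjusted p under 0.05, and limma-voom also called 0. Here Avil and P2rx3 can be tested, since the difference between LCX and DMSO took no part in their choice. The log2 difference of Avil was -0.02 (95% interval -0.29 to 0.25, adjusted p = 0.99 by limma-trend), and that of P2rx3 was -0.14 (95% interval -0.28 to 0.0044, adjusted p = 0.801 by limma-trend). The LCX and DMSO values of all 6 genes overlapped, beside 12.9% of all genes tested whose groups did not overlap. The other 4 genes differed by between -0.14 (Runx1) and 0.11 (Pou4f1), and their adjusted p values by limma-trend were 0.839 or higher. The HCX comparisons had groups without overlap for 32.8% of all genes against DMSO and 36.5% against LCX, and Avil and P2rx3 were the only 2 of the 6 sensory genes of that kind, which their selection fixed.

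**Figure D2:**
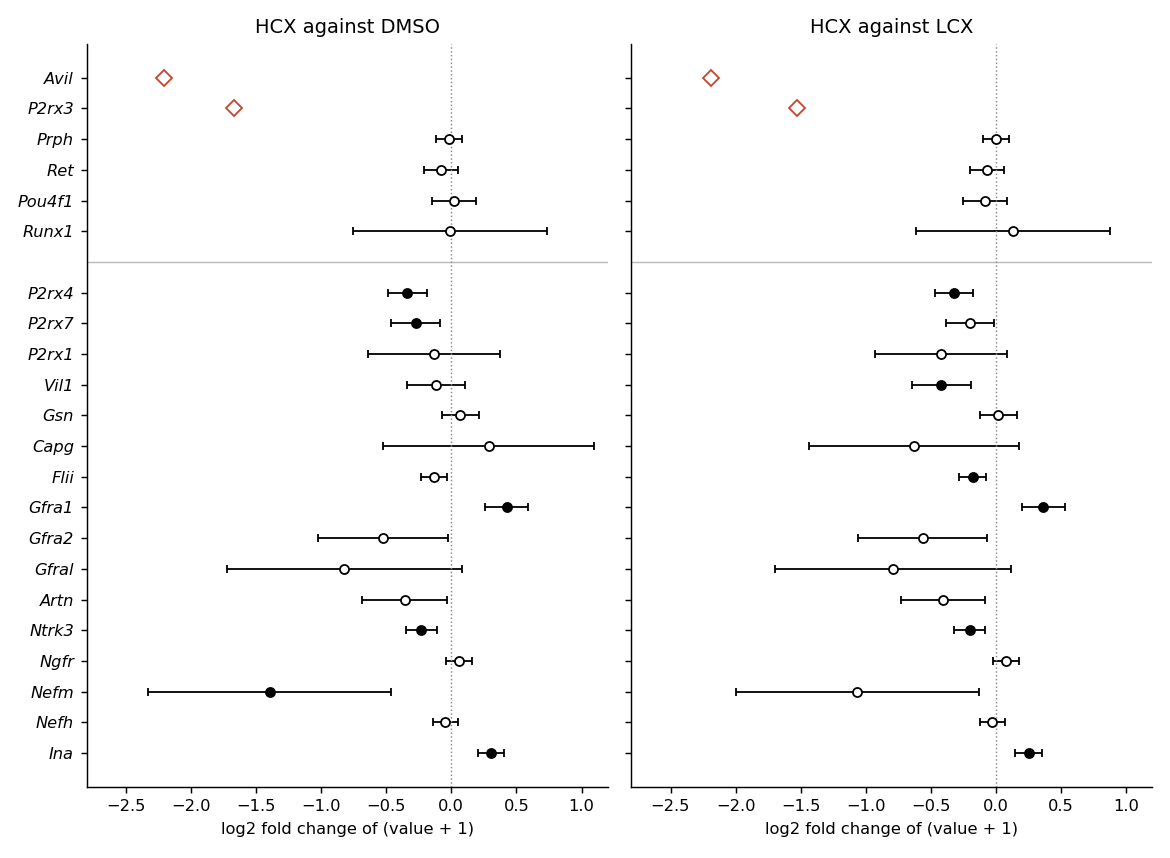
Log2 fold changes of (value + 1) in HCX against DMSO (left) and against LCX (right), with 95% intervals from limma-trend. Above the grey line are the sensory neuron genes and below it genes of their families and partners, with filled points for genes called at an adjusted p under 0.05, open points for genes not called, and diamonds without intervals for Avil and P2rx3, which chose the set. Prph, Ret, Pou4f1 and Runx1 lie near 0 in both panels.

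Further genes of the same pathways were read from 8 lists that hold 75 genes beside Avil and P2rx3, of which 36 could be tested. Between HCX and DMSO 6 of them fell and 5 rose, and between HCX and LCX 7 fell and 4 rose, so that 30.6% were called in each comparison, beside 19.2% and 17.3% of all genes. Nefm, among the 6 that fell, passed the filter only through the DMSO and LCX libraries, where it was higher. The median log2 difference of the 36 genes was -0.10 and -0.07 in these comparisons. Without HCX replicate 3 the genes that fell numbered 3 in each comparison, and without LCX replicate 1 or 3 they numbered 4 against LCX. The split of calls over all genes between HCX and DMSO was 1781 lower and 755 higher as deposited, and 1128 lower and 1116 higher with median-of-ratios scaling.

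Among the other P2X subunits P2rx4 and P2rx7 fell against DMSO, by less than the difference of P2rx3. P2X channels are trimers, and the 7 genes of the family were all in the table. Of the 6 other than P2rx3, 3 could be tested, and 2 of these fell against DMSO and 1 against LCX, with 0 higher. Over all genes tested, 13.5% were called lower against DMSO and 8.95% against LCX. P2rx4, an ATP-gated channel of many cell types, had normalized counts of 937, 969 and 965 in the DMSO libraries, 917, 945 and 982 in LCX, and 808, 743 and 724 in HCX. Its HCX values lay below all others, and its log2 difference was -0.34 (SE 0.0709, adjusted p = 0.00257) against DMSO and -0.32 (SE 0.0709, adjusted p = 0.00378) against LCX by limma-trend. P2rx7, which opens at high ATP and is best known from immune cells, fell against DMSO (-0.27, adjusted p = 0.0381 by limma-trend). Its call was lost with median-of-ratios scaling (adjusted p = 0.0834), equal library totals (adjusted p = 0.107), limma-voom (adjusted p = 0.114) and no filter (adjusted p = 0.07), and without DMSO replicate 1, 2 or 3 or HCX replicate 1 or 3 (adjusted p = 0.0584 to 0.133). Against LCX, P2rx7 differed by -0.20 (adjusted p = 0.131 by limma-trend). P2rx2, which forms mixed channels with P2X3 in sensory neurons, was too low to test, as were P2rx5 and P2rx6.

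None of the tested relatives of advillin was called against DMSO. Of the 7 other genes of the gelsolin and villin family, 4 could be tested. Between HCX and DMSO 0 of the 4 were called (lowest adjusted p = 0.0659, for Flii, by limma-trend), beside 19.2% of all genes tested. Between HCX and LCX 2 of the 4 fell, beside 8.95% of all genes called lower. Gsn encodes gelsolin, which severs and caps actin filaments, and had normalized counts of 2067, 2178 and 2106 in the DMSO libraries, 2072, 2232 and 2289 in LCX, and 2516, 2105 and 2074 in HCX. The groups overlapped, and the log2 difference was 0.07 against DMSO (95% interval -0.07 to 0.21, adjusted p = 0.504 by limma-trend). Per kilobase, Gsn at 671 ± 17.7 and Avil at 746 ± 161 overlapped in DMSO, while in HCX Gsn stood at 707 ± 78.1 and Avil at 161 ± 34.4. Against LCX, Vil1 (villin) was lower (-0.42, adjusted p = 0.0108 by limma-trend), a call that was lost without HCX replicate 1 (adjusted p = 0.0512), and so was Flii (flightless I, -0.18, adjusted p = 0.0168 by limma-trend), whose call was lost without HCX replicate 3, LCX replicate 1 or LCX replicate 2 (adjusted p = 0.058 to 0.0698). Without DMSO replicate 3, Flii was also called against DMSO (-0.18, adjusted p = 0.0196 by limma-trend).

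**Figure D3:**
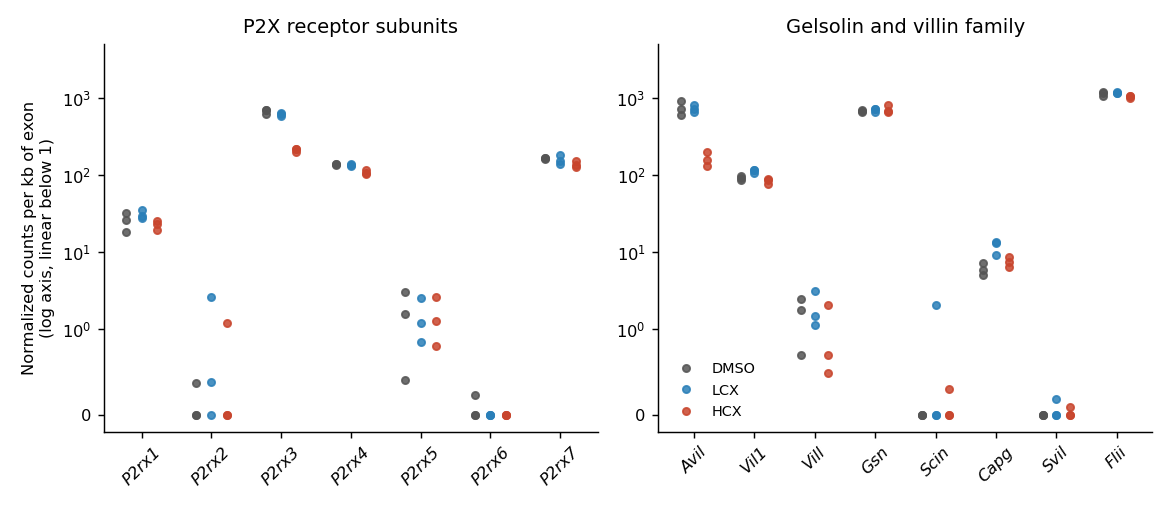
Normalized counts per kilobase of exon (log y axis, linear below 1) of the P2X receptor subunits (left) and the gelsolin and villin family (right), with 1 point per library coloured by group. P2rx3 is the highest P2X subunit in every group, and the HCX points of Avil lie apart from its other points while those of Gsn overlap.

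Among the 4 tested partners of Ret, the co-receptor gene Gfra1 rose, while the other 3 had negative differences and were not called. Gfra1 encodes the GDNF-binding co-receptor, and its normalized counts were 835, 789 and 766 in the DMSO libraries, 819.9, 826 and 852 in LCX, and 1195, 1067 and 961 in HCX. The HCX values lay above all others, with a log2 difference of 0.43 against DMSO (adjusted p = 0.000924) and 0.36 against LCX (adjusted p = 0.00373) by limma-trend. Of the 9 ligands and co-receptors listed, 4 could be tested and only Gfra1 was called. The median log2 difference of the 4 was -0.44 against DMSO and -0.49 against LCX. Gfra2 differed by -0.52 (adjusted p = 0.132) and Gfral, at a low level, by -0.82 (adjusted p = 0.197) against DMSO by limma-trend. The share of all genes called was 19.2% between HCX and DMSO and 17.3% between HCX and LCX. Artn, which encodes the ligand artemin, differed by -0.36 (adjusted p = 0.115 by limma-trend) against DMSO and was called lower without DMSO replicate 2 (-0.50, adjusted p = 0.0357). Gdnf, Pspn and Gfra3 were listed at 0 in all 9 libraries.

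Of the neurotrophin receptors, Ntrk3 fell. Ntrk3 encodes the receptor for neurotrophin-3, which in sensory ganglia marks proprioceptors, and its log2 difference was -0.23 against DMSO (adjusted p = 0.00856) and -0.20 against LCX (adjusted p = 0.0196) by limma-trend. The call against LCX was lost without LCX replicate 2 or HCX replicate 3 (adjusted p = 0.0518 to 0.102). Ngfr, the low-affinity receptor, was not called (0.06, adjusted p = 0.396 by limma-trend), and Ntrk2 was too low to test.

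Of the 14 transcription factors of sensory neurons listed, 13 were in the table and 10 could be tested. Between HCX and DMSO 3 rose, 1 fell and 6 were not called, and between HCX and LCX 2 rose, 1 fell and 7 were not called, beside 19.2% and 17.3% of all genes called. Etv1, an ETS factor of proprioceptors, rose by 0.60 on the log2 scale against DMSO (adjusted p = 7.11e-05) and 0.67 against LCX (adjusted p = 2.15e-05) by limma-trend. Pou4f2, a paralog of Pou4f1 known from retinal ganglion cells, had normalized counts of 216, 181 and 209 in the DMSO libraries, 164, 165 and 173 in LCX, and 318, 271 and 288 in HCX. Its HCX values lay above all others, with a log2 difference of 0.53 against DMSO (adjusted p = 0.00715) and 0.80 against LCX (adjusted p = 0.000275) by limma-trend. Shox2, a homeodomain factor of touch neurons in the mouse, rose against DMSO (0.36, adjusted p = 0.0351 by limma-trend), a call lost without DMSO replicate 2 or 3 or HCX replicate 1 or 2 (adjusted p = 0.0811 to 0.137), in a fit to the 6 libraries compared (adjusted p = 0.0545) and with no filter (adjusted p = 0.0666). Runx2, a paralog of Runx1 known from bone, fell against DMSO (-0.39, adjusted p = 0.00893) and against LCX (-0.36, adjusted p = 0.0147) by limma-trend, the latter call being lost without LCX replicate 1 or 3 (adjusted p = 0.0687 to 0.0751). Isl1, Runx3 and Cbfb, the partner subunit of the RUNX proteins, were not called.

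Most channels and peptides of nociceptors were hardly read in these cells. Of 20 nociceptor channels and receptors, 6 could be tested and 6 were listed at 0 in all libraries. Between HCX and DMSO 0 of the 6 tested were called (lowest adjusted p = 0.0969, for Asic1, by limma-trend), beside 19.2% of all genes. Between HCX and LCX 1 of the 6 fell, beside 8.95% of all genes called lower. Asic1, an acid-sensing channel, had normalized counts of 2755, 2870.1 and 2739.9 in the DMSO libraries, 2945, 2799.6 and 3009.9 in LCX, and 2717, 2545 and 2372 in HCX. Its log2 difference was -0.13 against DMSO, called without HCX replicate 1 (-0.18, adjusted p = 0.0376), and -0.20 against LCX (adjusted p = 0.0173 by limma-trend), a call lost without HCX replicate 3 or LCX replicate 1 or 3 (adjusted p = 0.0655 to 0.0849). Trpv2, the relative of Trpv1 with the higher heat threshold, differed by -0.11 against DMSO (adjusted p = 0.286 by limma-trend). Of 11 peptides and peptide receptors, 3 could be tested and 6 were listed at 0. Of the 3 tested, 1 fell in each HCX comparison, beside 13.5% of all genes called lower against DMSO and 8.95% against LCX. Tacr2 (-0.41, adjusted p = 0.269) and Calcrl (-0.08, adjusted p = 0.821) were not called against DMSO by limma-trend. Npy, which encodes neuropeptide Y and appears in sensory neurons after injury, had normalized counts of 66.8, 94.2 and 78.8 in the DMSO libraries, 78.8, 59.1 and 80.1 in LCX, and 46.9, 49.9 and 24 in HCX. It fell against DMSO (-1.03, adjusted p = 0.0137) and against LCX (-0.89, adjusted p = 0.0322) by limma-trend. HCX replicate 3 held the lowest value, and without it neither call was kept (adjusted p = 0.0728 and 0.163). The call against DMSO was also lost without DMSO replicate 2 (adjusted p = 0.0512), and that against LCX without LCX replicate 1 or 3 (adjusted p = 0.11 to 0.115), with limma-voom (adjusted p = 0.0517) and with no filter (adjusted p = 0.0853).

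Peripherin assembles with neurofilament proteins, and 3 of their 4 listed genes could be tested. Between HCX and DMSO Ina rose, Nefm fell and Nefh was not called, beside 19.2% of all genes called. Between HCX and LCX only Ina was called, beside 17.3% of all genes. Ina, which encodes α-internexin, had normalized counts of 6968, 7241 and 6586 in the DMSO libraries, 7079, 7108 and 7402 in LCX, and 9158, 8282 and 8264 in HCX. It rose by 0.31 on the log2 scale against DMSO (adjusted p = 0.000254) and 0.25 against LCX (adjusted p = 0.00164) by limma-trend. Nefh, the heavy neurofilament gene, differed by -0.05 (95% interval -0.14 to 0.05, adjusted p = 0.522 by limma-trend) against DMSO. Nefm, the medium neurofilament gene, had low normalized counts of 23.6, 20.5 and 37.3 in the DMSO libraries, 23.4, 31 and 12.1 in LCX, and 9.39, 9.05 and 9.65 in HCX. It passed the filter through the DMSO and LCX libraries, since its HCX values were under 10, and could not be tested when at least 10 was asked of every library. Nefm fell against DMSO (-1.40, adjusted p = 0.0339 by limma-trend), a call lost without DMSO replicate 1 or 3 or any 1 HCX replicate (adjusted p = 0.059 to 0.135) and with limma-voom (adjusted p = 0.0505). Nefl was too low to test.

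The genes beside Avil and P2rx3 on their chromosomes were read to see how far reads could be shared. Tsfm, a mitochondrial elongation factor gene on the minus strand, overlaps Avil over 165 exonic bases, or 4.86% of the exon bases of Avil. Its normalized counts were 2482, 2632 and 2356 in the DMSO libraries, 2432, 2424 and 2335 in LCX, and 2232, 2581 and 2359 in HCX. The groups of Tsfm overlapped, with a log2 difference of -0.06 against DMSO (adjusted p = 0.525 by limma-trend). Ctdsp2, which ends 733 bases before Avil, and Mettl1 on its other side were not called in either HCX comparison. Ssrp1, a subunit of the histone chaperone FACT on the plus strand, overlaps P2rx3 over 51 exonic bases, or 1.83% of its exon bases, and had normalized counts of 21432, 20519 and 22951 in the DMSO libraries, 20258, 21057 and 20475 in LCX, and 18384, 19032 and 18688 in HCX. Ssrp1 fell by 0.21 on the log2 scale against DMSO (adjusted p = 0.00301) and by 0.14 against LCX (adjusted p = 0.0381) by limma-trend, the latter call being lost without any 1 of the LCX or HCX libraries (adjusted p = 0.0586 to 0.148), with equal library totals, limma-voom or no filter (adjusted p = 0.065 to 0.069) and with the replicate number as a block (adjusted p = 0.0526). Prg3, the nearest gene on the other side of P2rx3, was listed at 0, and Tnks1bp1, next to Ssrp1, was not called. The libraries were stranded, but the strand setting of the counting is not given in the sources used here. Of the 31-base stretches in the transcripts of Avil 0.0582% occur in another gene, and 0% for P2rx3.

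The genes with profiles most like those of Avil and P2rx3 were sought over the 9 libraries, among 11149 tested genes with a mean of at least 50. Gm and Rik names, date-like names and names that begin with a digit had been left out of these. The measure was the root mean square difference between log2(value + 1) profiles after each gene's own mean had been subtracted. Nearest to Avil were Lcn2 (0.25), Mamdc2 (0.30), Ccr10 (0.33), Car6 (0.34) and P2rx3 itself (0.34). Nearest to P2rx3 were Mamdc2 (0.11), Car6 (0.17), Prkg2 (0.18), Mmp9 (0.19) and Serpinf1 (0.20), and Avil held rank 32. Mamdc2, which encodes a secreted proteoglycan, had normalized counts of 1824, 1881 and 1738 in the DMSO libraries, 1778, 1711 and 1825 in LCX, and 624, 648 and 472 in HCX. Lcn2, which encodes the iron-siderophore binder lipocalin 2, had 603, 1075 and 510.2 in the DMSO libraries, 821, 681 and 919 in LCX, and 208, 289 and 139 in HCX. Both genes were low in all 3 HCX libraries, with a log2 difference against DMSO of -1.65 for Mamdc2 and -1.76 for Lcn2, given as a description since the likeness chose them. The other 4 tested sensory genes lay at between 1.04 and 1.12 from Avil and between 0.73 and 0.85 from P2rx3. These distances are also a description, since the fall that chose Avil and P2rx3 sets them for any gene that stayed level.

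**Figure D4:**
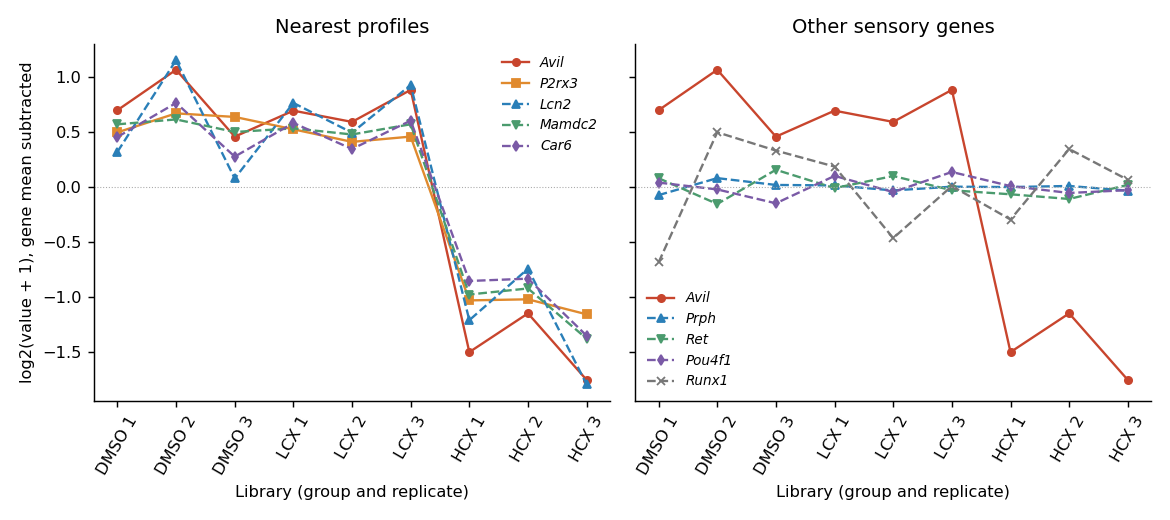
Log2(value + 1) with each gene's mean subtracted (y axis) in the 9 libraries (x axis), for Avil, P2rx3 and 3 of their nearest genes (left) and for Avil beside the other tested sensory genes (right). The genes on the left drop in the 3 HCX libraries, while Prph, Ret, Pou4f1 and Runx1 on the right show no such drop. Lines join the libraries of a gene, and replicates have no order.

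The labelled cell type was read from marker genes. All 5 neuronal markers (Tubb3, Elavl3, Elavl4, Stmn2 and Snap25) were tested and 0 were called in the HCX comparisons, at summed normalized counts of 32121 to 33590.3 in DMSO and 31994 to 33449 in HCX. Of all genes, 19.2% were called between HCX and DMSO and 17.3% between HCX and LCX. Of the noradrenergic neuroblast markers, 7 of 8 were tested, and Hand2 (0.52, adjusted p = 6.58e-07) and Phox2a (0.34, adjusted p = 0.000172) rose against DMSO by limma-trend, while Th and Dbh were low. The other 5 tested were not called, and 2 of the 7 had a negative difference, among them Gata2 (-0.12, adjusted p = 0.0578 by limma-trend). Summed markers of fibroblasts ranged from 627 to 734 in DMSO, 691 to 778 in LCX and 388 to 508 in HCX, with Dcn lower (-0.79, adjusted p = 0.000598 by limma-trend), and those of endothelial cells from 219 to 243, 250.1 to 256 and 146 to 211, with Pecam1 lower (-0.44, adjusted p = 0.0375 by limma-trend) and Kdr at 0. Both sums mostly follow 1 gene, with DMSO and HCX means of 523 and 307 for Dcn and 199 and 147 for Pecam1. Of the other fibroblast markers tested, Pdgfra (-0.38, adjusted p = 0.24) and Col1a1 (0.19, adjusted p = 0.737) were not called by limma-trend. Cdh5 was not called either (-0.51, adjusted p = 0.35 by limma-trend). Summed glial markers ranged from 81.1 to 117 in DMSO, 90.0 to 120 in LCX and 79.2 to 91.9 in HCX, and summed immune markers from 27.7 to 37.4, 20.9 to 31.8 and 14.0 to 22.8, with Ptprc at 0 in most libraries. The immune sum mostly follows Cd68, with means of 28.9 in DMSO and 14.4 in HCX. Cd68 was the only immune marker tested and was not called against DMSO (-0.95, adjusted p = 0.087 by limma-trend). The part of these markers in the fall of Avil and P2rx3 was not tested.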

How the data were processed

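RNA of 9 Neuro2a samples was sequenced as TruSeq stranded libraries. The submitters' processing notes name Bowtie, TopHat2 and Partek with mm10, and versions and annotation are not given in the sources used here. The authors deposited 1 table of signal values per gene and library, namely normalized read counts that had been scaled between libraries and by a further factor near 1 for each gene, so whole reads could not be recovered. Of the gene names, 26 had been turned into dates and are not named.

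A gene entered the fit when 3 or more libraries held 10 or more, and log2(value + 1) was fitted with limma-trend (limma 3.58.1, R 4.3.3), with 1 term per group, 6 residual and 13.8 prior degrees of freedom and Benjamini-Hochberg adjustment over all 13179 genes. An exact permutation test of 3 samples against 3 has a smallest two-sided p of 0.1 and was not used. Figures used Python 3.11.15, numpy 2.4.6 and matplotlib 3.10.9. Gene positions came from the GENCODE annotation of GRCm38. The procedure was run on simulated data, and the outcome is not reported here.

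The sensory genes and the lists were chosen with earlier results of these data known. The text names the 9 sensory genes; genes of the P2X, gelsolin, Ret, neurotrophin receptor and neurofilament lists that were called or had a mean of at least 100; in the other lists, up to 4 called genes or 2 of the highest mean; the 5 nearest profiles of Avil and of P2rx3; and their neighbouring genes. Some genes that this rule reached are not reported here. Other genes named as not called, low or at 0 were chosen after their values were seen. Alternatives were 2 other scalings, pseudocounts of 0.5 and 10, no filter or at least 10 in every library, a replicate block, limma-voom, a fit to the 6 libraries compared, an adjusted p of 0.01 and leaving out each library.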

Additional observations from a re-analysis of the deposited data

How the results depend on the processing

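Each result was computed under 19 alternatives (18 for Nefm, too low with at least 10 in every library), and no direction of a called result turned. Over them the log2 difference of Avil between HCX and DMSO ranged from -2.37 to -2.04 and that of P2rx3 from -1.72 to -1.61. Of the other sensory genes, 0 were called between HCX and DMSO except for Ret without DMSO replicate 2, so that leaving out 1 library gave 0 to 1 calls. Leaving out 1 library gave 3 to 6 genes of the other sensory lists lower between HCX and DMSO and 3 to 7 between HCX and LCX. At an adjusted p of 0.01 these counts were 3 and 1. Why single libraries moved these counts was not tested. Over all genes, the calls lower and higher between HCX and DMSO were 1781 and 755 as deposited, 966 and 1307 with equal library totals, 930 and 1301 with limma-voom and 874 and 341 at an adjusted p of 0.01, and the calls between HCX and LCX at 0.01 were 586 lower and 470.0 higher.

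With the replicate block, 0 of the other sensory genes were called in either HCX comparison, and the log2 difference of Ret against DMSO stayed at -0.08 (adjusted p = 0.396 by limma-trend). The block took Ssrp1 between HCX and LCX to an adjusted p of 0.0526 by limma-trend and gave 1 gene lower and 2 higher over all genes between LCX and DMSO, and it changed no other call of a named gene. Same-numbered libraries deviated from their group means with correlations across genes of -0.10 to 0.10, so the numbers were not taken to pair the samples. Runx1, at a low level, had a 95% interval of -0.75 to 0.74 between HCX and DMSO, and Calca, Tac1 and Trpv1 had no test because their values did not pass the filter.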

Other observations

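Within each group, the 3 libraries of Avil stood in the order replicate 2, 1, 3 in DMSO, replicate 3, 1, 2 in LCX and replicate 2, 1, 3 in HCX, from high to low. The same order in all 3 groups was found for 149 of the 13178 other genes tested (1.13%), among them Lcn2, Mamdc2 and Car6, and not for P2rx3. This was read after the nearest profiles of Avil had been seen and is given as a description.

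Per kilobase of exon, Ngfr stood at 3744 ± 243 in DMSO and 3903 ± 110.4 in HCX (SD, n = 3 each), beside 746 ± 161 and 161 ± 34.4 for Avil.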
